A study of Oryza sativa with 8 samples.

Results

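The regions described here are those that the ChIP-seq of ABERRANT PANICLE ORGANIZATION2 (APO2) in rice called in replicates 3 and 4 and in neither replicate 1 nor replicate 2. Peaks of the 4 lists were merged where they overlapped by 1 bp or more. Of 4076 merged regions, 498 held peaks of replicates 3 and 4 alone, and 65 of these lay in 6 short, dense blocks of chromosomes 1, 2, 4, 8, 10 and 12 that the rule leaves out. The remaining 433 regions are 11.2% of the 3861 merged regions outside the blocks. They are 35.9% of the 1205 regions that held peaks of both replicates 3 and 4. These percentages follow from the rule and are given as a description.

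The study measured the binding of APO2 by chromatin immunoprecipitation and sequencing (ChIP-seq) in young inflorescence meristems of rice, fixed with 1% formaldehyde for 10 minutes, with an antibody against green fluorescent protein (GFP). The labels give 4 ChIP and 4 input replicates, and the files used here are the peak lists called on each ChIP replicate by itself. The labels number the antibody differently in each replicate (ab290, ab291, ab292 and ab293 in replicates 1 to 4), and the labels do not say whether these were different products. All ChIP replicates share the tissue and fixation, the variety, genotype, GFP fusion and promoter are not given, and no immunoprecipitation from tissue without a GFP fusion is among the samples, so that presence in 2 lists does not by itself show that APO2 bound there. Nothing states that the replicates came from separate plants, so any spread between them may be technical.

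APO2 is the rice orthologue of LEAFY, a plant-specific transcription factor that in Arabidopsis switches meristems from making leaves to making flowers. LEAFY binds DNA as a dimer at short, nearly palindromic motifs in the regulatory sequence of its targets, among them floral homeotic genes. In rice, APO2 works together with the F-box protein APO1 to keep the inflorescence meristem active and to let the panicle form its branches before spikelets. The sequence at the regions and the genes near them were not analysed here, and positions count from 1 on chromosomes of IRGSP-1.0.

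The lists differed in length, with 1337, 626, 3308 and 2081 peaks in replicates 1 to 4. The regions took up 434 peaks of replicate 3 (13.1% of its list) and 441 peaks of replicate 4 (21.2%). In 427 of the 433 regions each of these replicates had 1 peak, and the other 6 held more than 1 peak of a replicate, of which the strongest was used. The regions covered 241 kb, with a median width of 473 bp and a range of 265 to 3862 bp.

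The peaks were of moderate strength in both replicates. The fold, as the caller gave it, divides the ChIP fragments at the summit by the local background, with 1 added to both. Its median over the 433 regions was 5.01 in replicate 3 (quartiles 4.12 and 6.26, range 2.201 to 14.9) and 4.96 in replicate 4 (quartiles 4.15 and 6.03, range 2.21 to 11.97). Ranked within its own list, the median region stood at the 50.5th percentile of fold in replicate 3 and at the 40.7th in replicate 4. The regions thus came from the middle of list 3 and from somewhat below the middle of list 4. In the top 25% of both lists by fold stood 16 regions (3.70%, 95% Wilson interval 2.29 to 5.92%), and 2 stood in the top 10% of both. Taking each list by itself, 86 regions (19.9%) were in the top 25% of list 3 and 34 (7.85%) in that of list 4. At the other end, 98 regions (22.6%) were in the lowest 25% of list 3 and 121 (27.9%) in the lowest 25% of list 4. Both shares at the lower end are close to the 25% of all peaks that stand there by definition. None of these counts was made for the other sets. In the regions of replicates 1, 3 and 4 the median percentiles were 73.2 in list 3 and 64.9 in list 4. In those of all 4 replicates they were 92.0 and 87.8. Strength decides what is called, so these shares are tied to the rule.

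The number of ChIP fragments beneath each summit was recovered from the fold and the p-value. Its median was 28 fragments in replicate 3 (quartiles 20 and 37) over a background of 4.85 fragments, and 14 in replicate 4 (quartiles 11 and 18) over a background of 1.97. Replicate 3 had the higher background in all 433 regions and more fragments in 427 (98.6%). This was not particular to the set. Replicate 3 also had the higher background in all 369 regions of replicates 1, 3 and 4 and in all 376 of all 4 replicates. It had more fragments in 97.0% and 98.9% of them. Over the 433 regions the background of replicate 3 was a median of 2.39 times that of replicate 4, and its fragments 2.00 times. The folds of the replicates thus came out alike although the counts did not. The same ratio of backgrounds was 2.48 in the 369 regions of replicates 1, 3 and 4 and 2.37 in the 376 regions of all 4 replicates.

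The −log10 q decides which peaks are called, so its values are tied to the rule and are given as a description. The caller's threshold lies near a q-value of 0.05, and 19 of the 433 regions (4.39%) had a −log10 q under 2 in at least 1 of the replicates, 2 of them in replicate 3 and 17 in replicate 4. In 227 regions (52.4%) the −log10 q was at least 5 in both. Its median was 10.75 in replicate 3 and 5.69 in replicate 4.

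In median fold the regions stood above those of replicate 3 or 4 alone and below those of replicates 1, 3 and 4. Regions of replicate 3 alone had a median fold of 4.36 and 13 fragments in that replicate, against 5.01 and 28 here. Regions of replicate 4 alone had a median fold of 4.45 and 10 fragments in that replicate, against 4.96 and 14. Regions of replicates 1, 3 and 4 reached median folds of 6.54 in replicate 3 and 6.44 in replicate 4, and regions of all 4 replicates 12.3 and 10.7. The 27 regions of replicates 2, 3 and 4 also had higher folds, 6.10 and 5.89, but their fragments, 25 in replicate 3 and 15 in replicate 4, were close to the 28 and 14 here. The quartile ranges of neighbouring sets overlapped, as the plot by set shows. The backgrounds did not follow this order: the median background in replicate 3 was 4.85 fragments here, 4.68 in the regions of replicates 1, 3 and 4 and 4.77 in those of all 4. In the regions of replicate 3 alone it was lower, at 2.00. Strength decides what is called, so this order is tied to the rule and was not tested.

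**Figure D1:**
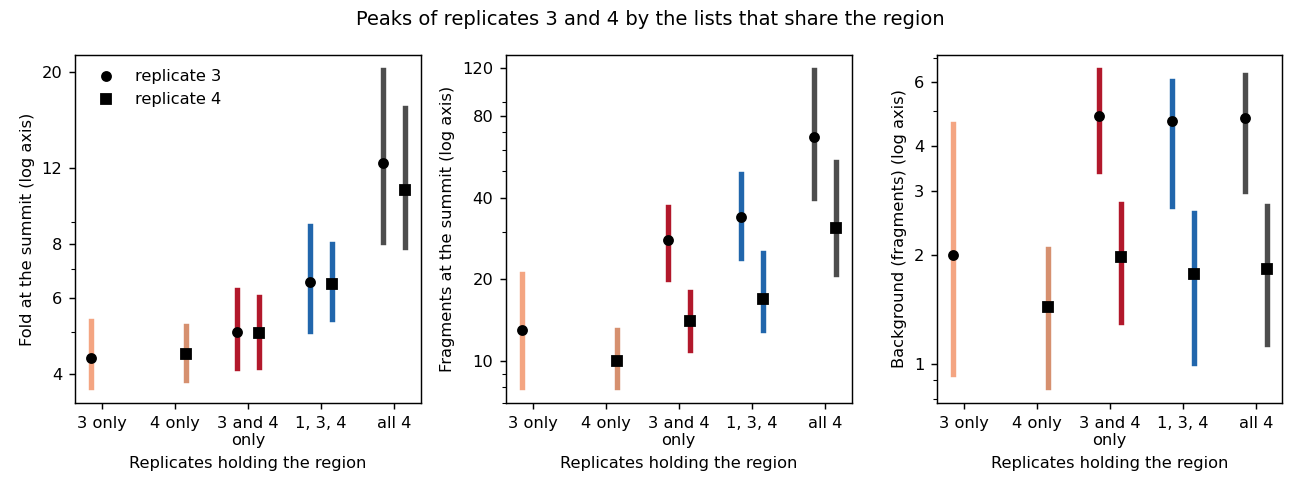
Fold at the summit, fragments at the summit and background beneath it (log axes) in replicate 3 (circles) and replicate 4 (squares), for regions grouped by the replicates that hold them; points are medians and bars run from the first to the third quartile over regions. Fold and fragments in regions of replicates 3 and 4 only lie above those of single-list regions and below those of regions that replicate 1 also holds, while the median backgrounds of the last 3 sets are close to each other.

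The share of regions that replicates 1 and 2 both lacked fell with strength. The 1205 regions with peaks of replicates 3 and 4 were split into 4 groups of nearly equal size by the fold of replicate 4. Of the lowest group, with folds of 2.21 to 4.96, 214 of 302 (70.9%) were in neither list 1 nor list 2. In the next groups this share was 45.5% and 23.6%, and in the highest, with folds from 9.39 to 105, it was 3.65%, or 11 regions. These shares use the values that the calls rest on and carry no test.

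**Figure D2:**
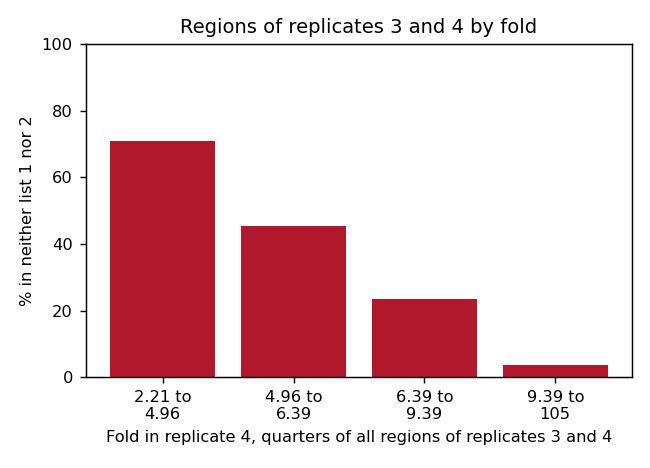
Percent of regions with peaks of replicates 3 and 4 that neither replicate 1 nor 2 held (y axis), for 4 groups of these regions by the fold in replicate 4 (x axis). The share goes from 70.9% in the lowest group to 3.65% in the highest.

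Replicates 3 and 4 ordered the regions loosely alike. Folds lay within 1.5 times of each other in 353 of the 433 regions (81.5%, interval 77.6 to 84.9%). The share was 74.5% of all regions with peaks of both replicates, the 433 included. It was 70.5% for replicates 1, 3 and 4 and 70.2% for all 4. Folds of the 433 regions span a narrower range than those of these 2 sets, and the part of that in the shares was not tested. Replicate 3 had the higher fold in 232 regions (53.6%, interval 48.9 to 58.2%), against 54.4% of all regions with both, and the interval includes an even split. Across the 433 regions, Spearman's rho between the folds was 0.42 and Pearson's r on log2 folds 0.45. Over the 369 regions of replicates 1, 3 and 4, rho was 0.41, and over the 376 regions of all 4 replicates, whose folds span a wider range, it was 0.74. For the fragments, rho was 0.74 in the 433 regions, and for the backgrounds 0.88. The points of each correlation share 2 libraries and their depth, and regions are not replicates.

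**Figure D3:**
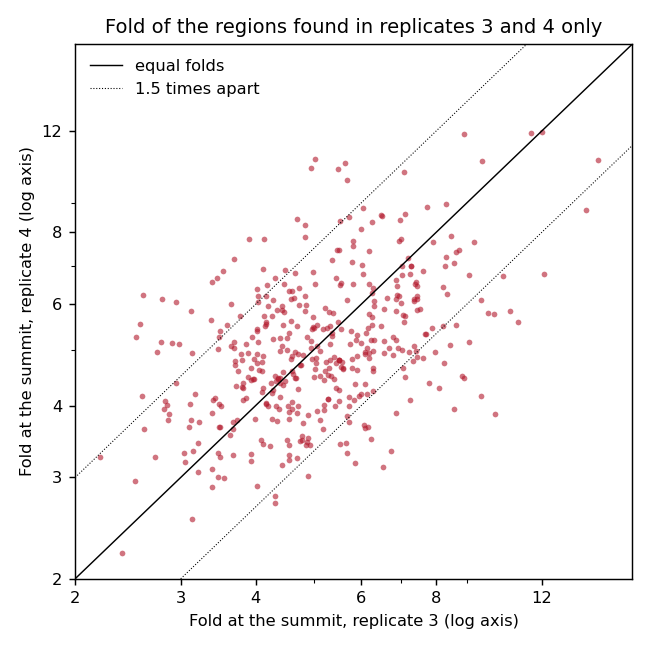
Fold at the summit in replicate 3 (x axis, log) and replicate 4 (y axis, log) for each of the 433 regions found in replicates 3 and 4 only; the solid line marks equal folds and the dotted lines folds 1.5 times apart. The points scatter on both sides of the solid line and 353 lie between the dotted lines.

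The summits of the replicates lay close together. In 339 of the 433 regions (78.3%, interval 74.2 to 81.9%) they were within 100 bp of each other, against 79.6% of all regions with peaks of both replicates. They were within 50 bp in 231 regions (53.3%), and over 200 bp apart in 39 (9.01%). The median distance was 46 bp (quartiles 21 and 91 bp). It was also 46 bp in the regions of replicates 1, 3 and 4, where 76.2% of the summits lay within 100 bp (interval 71.5 to 80.2%), and 34 bp in those of all 4 replicates, where 85.6% did (interval 81.7 to 88.8%). The weaker regions held by replicates 3 and 4 only therefore placed their summits about as closely as those that replicate 1 held too, with overlapping intervals.

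The rule asks for some overlap, and in most regions the peaks of the replicates shared much of the shorter one. In the 427 regions with 1 peak of each replicate, the peaks shared a median of 293 bp and at least 59 bp. In 206 of the 433 regions the strongest peak of one replicate lay wholly inside that of the other. In 423 (97.7%) the strongest peaks shared at least 50% of the shorter one. The median shared part of the shorter peak was 98.9% here, with a 5th percentile of 64.1%. It was 100% in the regions of replicates 1, 3 and 4 (5th percentile 69.7%) and 100% in those of all 4 (84.6%). Peak widths were less alike between the replicates, with a rho of 0.22 across the 433 regions against 0.49 in the regions of replicates 1, 3 and 4 and 0.72 in those of all 4.

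The 12 regions that ranked highest by the mean percentile of fold within both lists lay on 6 chromosomes, with mean percentiles from 80.03 to 91.3. The first was on chromosome 11 from 4755750 to 4756166. Its fold was 14.9 in replicate 3, from 27 fragments over a background of 0.879, and 10.7 in replicate 4, from 14 fragments over 0.406. The exact 95% Poisson interval, which covers counting error only, was 17.8 to 39.3 for the 27 fragments and 7.65 to 23.5 for the 14. With the peaks of the region itself counted, replicate 3 had 6 peaks within 50 kb of this region, replicate 4 had 1 and replicates 1 and 2 had 0. This is the highest fold of replicate 3 among the 433 regions, and its background there is below the 5th percentile of the regions, 1.30 fragments.

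The second region, on chromosome 2 from 20937468 to 20938066, had folds of 12.02 in replicate 3 and 11.97 in replicate 4. They rested on 55 fragments in replicate 3 (interval 41.4 to 71.6) and 29 in replicate 4 (19.4 to 41.6), with summits 12 bp apart. The third lay on chromosome 7 between 4301417 and 4301904, with folds of 11.5 and 11.9, 39 and 25 fragments and summits 8 bp apart. The nearest peak of replicate 1 or 2 was 235862 bp from the second region and 252641 bp from the third. These 2 regions are the ones in the top 10% of both lists.

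The fourth, on chromosome 12 from 13383322 to 13383665, held more fragments than any other of the 12, with 99 in replicate 3 and 67 in replicate 4. Its folds of 8.92 and 11.9 stood over high backgrounds of 10.2 and 4.73 fragments, and a region with a peak of replicate 1 or 2 lay 2867 bp away. The fifth, between 797136 and 797528 on chromosome 7, had folds of 9.55 and 10.6 from 18 and 14 fragments. The sixth, on chromosome 4 from 31183355 to 31183887, was less even between the replicates, with 14.24-fold from 29 fragments in replicate 3 and 8.74-fold from 12 in replicate 4, although the summits lay 2 bp apart.

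The other 6 of the 12 had folds from 6.77 to 12.1. The region between 31763410 and 31763785 on chromosome 4 had folds of 8.29 in replicate 3 and 8.96 in replicate 4. Chromosome 2 held one between 29086501 and 29087045, with folds of 7.08 and 10.2, and one between 21095796 and 21096582, with 9.25 and 7.70. Chromosome 12 held one between 4678365 and 4678713, with folds of 7.73 and 8.85 from 64 and 38 fragments. Another on chromosome 12, between 5653516 and 5653902, had folds of 8.47 and 7.87 and belongs to a dense chain described below. The last, between 2546678 and 2547269 on chromosome 9, had folds of 12.1 and 6.77. Over the 12 regions the summits were a median of 15.5 bp apart. By the fragments of replicate 4, which were from 11 to 67, counting error alone leaves the order among the 12 unsettled.

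The 5 lowest-ranked regions show what the weakest members look like. On chromosome 4 from 32928079 to 32928552 the folds were 2.39 and 2.21, from 44 and 24 fragments over backgrounds of 17.8 and 10.3. On chromosome 9 from 4723529 to 4725444 they were 3.13 and 2.54, from 97 and 40 fragments over 30.3 and 15.1. In these 2 regions the counts were large and the background was large too. The other 3 had fewer fragments. The folds were 2.52 and 2.95 on chromosome 5 from 29935891 to 29936467, 2.201 and 3.25 on chromosome 2 from 20577446 to 20577898, and 2.72 and 3.25 on chromosome 4 from 28655323 to 28655733, each from 17 to 21 fragments in replicate 3 and 10 or 11 in replicate 4.

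The replicates differed most in a few regions. On chromosome 1 from 3856930 to 3857634 the fold was 2.59 in replicate 3 and 6.24 in replicate 4, a log2 ratio of 1.27. Next came the regions on chromosome 4 from 21682334 to 21682734, with 2.79 and 6.13, and on chromosome 1 from 38081181 to 38081936, with 2.57 and 5.53. In all 3, replicate 3 had 21 or 22 fragments over a background above 7. Their summits in the replicates were 23, 165 and 592 bp apart, in that order, so the folds were not all read at the same position. In the opposite direction, the region on chromosome 2 from 1494599 to 1495055 had a fold of 10.0 in replicate 3 and 3.87 in replicate 4, a log2 ratio of -1.37, but the value of replicate 4 rests on 4 fragments (interval 1.09 to 10.2). The regions on chromosome 2 from 32580752 to 32581396, with 9.51 and 4.15, and on chromosome 12 from 2249790 to 2250199, with 8.58 and 3.94, followed, with 10 fragments each in replicate 4. Over all 433 regions the log2 ratio of replicate 4 over replicate 3 had a median of -0.04, and 90% of the regions lay between -0.74 and 0.77.

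The widest regions were 3862 bp on chromosome 4 from 32888587, 3452 bp on chromosome 5 from 12886754, 3254 bp on chromosome 9 from 14505411 and 1916 bp on chromosome 9 from 4723529. In each of them 1 peak of replicate 3 spanned a broad stretch, and in the first and second replicate 4 had 3 peaks along it. Their backgrounds in replicate 3, from 16.3 to 33.9 fragments, were all far above the median of 4.85. The strongest summits of the replicates were 2938, 1338, 664 and 139 bp apart. In the third, with 1 peak of each replicate, the shared region thus does not mark a shared summit. In the first and second, the weaker summits of replicate 4 were not compared with that of replicate 3.

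At the edge of the rule, the difference between inside and outside came down to short distances. The nearest peak of replicate 1 or 2 lay 308 bp from the region on chromosome 12 from 5653516 to 5653902 (a peak of replicate 2 with a fold of 6.87), 333 bp from that on chromosome 6 from 23567968 to 23568654 (replicate 1, 4.49-fold) and 354 bp from that on chromosome 12 from 11575671 to 11576662 (replicate 1, 6.63-fold). Just outside, the region on chromosome 6 from 359605 to 360220 was left out because a peak of replicate 2 shared 91 bp with it. That on chromosome 5 from 24862097 to 24862691 was left out through 166 bp of a peak of replicate 1, and that on chromosome 3 from 12034273 to 12034708 through 175 bp of a peak of replicate 2. Those 3 peaks held 7 or 8 fragments each.

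Absence from lists 1 and 2 was set beside the folds at which these lists made calls. Among the 271 peaks of list 1 whose background was within 25% of that list's median of 2.42 fragments, the lowest fold called was 3.11. In 398 of the 433 regions (91.9%) the folds in replicates 3 and 4 were both above that value. Among the 164 such peaks of list 2, around its median of 0.895 fragments, the lowest fold was 3.66, and 342 regions (79.0%) exceeded it in both replicates. With the 5th percentile of these folds in place of the lowest, 3.51 in list 1 and 4.47 in list 2, the counts were 352 (81.3%) and 216 (49.9%). These counts set folds of replicates 3 and 4 beside calls made in other libraries. They were not made for the other regions with peaks of replicates 3 and 4. Why lists 1 and 2 lack the regions cannot be read from them. The fragments and the background of replicates 1 and 2 at these positions are not in the lists, so how far below their own thresholds they stayed is not known.

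Where replicates 1 and 2 did make calls, their folds were lower than those of replicates 3 and 4 at the same regions. In the 369 regions of replicates 1, 3 and 4, the fold of replicate 1 was a median of 0.837 times that of replicate 3 and 0.862 times that of replicate 4. In the 376 regions of all 4, the fold of replicate 2 was 0.650 times that of replicate 3 and 0.710 times that of replicate 4. Replicate 2 also had 0.208 times the fragments of replicate 3 and 0.429 times those of replicate 4 there. Replicate 1 was unlike it when set beside replicate 4. Its fragments were 1.00 times those of replicate 4 in the regions of replicates 1, 3 and 4 and 1.05 times in those of all 4. Its backgrounds there were 1.26 and 1.21 times as high. Beside replicate 3, however, replicate 1 had 0.514 and 0.489 times the fragments in these sets, over 0.495 and 0.493 times the background. The number of the antibody, as labelled, also differs with the replicate, and it may not stand for different products. Peaks of replicate 3 are named by a different scheme from those of the others, and whether its list was made in the same way is not known. The parts of these in the absence of the 433 regions from lists 1 and 2 cannot be told apart.

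The number of regions found only in replicates 3 and 4 was much lower when the lists were cut to equal length. With the full lists, these 433 regions outnumbered those of any other pair alone. Outside the dense blocks, replicates 1 and 3 alone shared 107 regions, 1 and 4 shared 64, 2 and 3 shared 18, 2 and 4 shared 7 and 1 and 2 shared 2. When every list was limited to its strongest 626 peaks by fold, the length of the shortest, which keeps 46.8% of list 1, 18.9% of list 3 and 30.1% of list 4 and so removes their weaker peaks as well, replicates 3 and 4 alone shared 34 regions and the other pairs 33 (1 and 4), 25 (1 and 3), 22 (2 and 3), 21 (2 and 4) and 13 (1 and 2). At equal length the pair of replicates 3 and 4 thus stood beside that of replicates 1 and 4. Of the 34 regions, 16 were among the 433 (3.70% of them), and the other 18 were not. Put the other way round, with full lists, 48.9% of the 885 regions of list 4 that lists 1 and 2 lacked were found in list 3 (interval 45.6 to 52.2%), and 19.8% of the 2187 such regions of list 3 were found in list 4.

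The regions lay on all 12 chromosomes. Their density was 1.17 per Mb over the 372 Mb up to the last peaks, and ran from 0.311 per Mb on chromosome 11, with 9 regions, to 2.01 on chromosome 3, with 73. Chromosome 1 had 66 (1.54 per Mb), chromosome 5 had 37 (1.24), chromosome 4 had 49 (1.38) and chromosome 8 had 20 (0.704). The regions with peaks of both replicates, whatever replicates 1 and 2 held, were likewise sparsest on chromosome 11, at 1.14 per Mb, and densest on chromosome 3, at 5.24 per Mb. The share of these that replicates 1 and 2 lacked therefore varied less than the density. It was lowest on chromosome 11 (27.3%, interval 15.1 to 44.2%) and chromosome 8 (27.4%, 18.5 to 38.6%) and highest on chromosome 10 (43.4%, 31.0 to 56.7%), and the interval of every chromosome included the 35.9% of the genome as a whole. The lengths include sequence without mappable reads. In the outer 20% at either end of a chromosome lay 207 of the 433 regions (47.8%, interval 43.1 to 52.5%), against 50.5% of all merged regions.

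**Figure D4:**
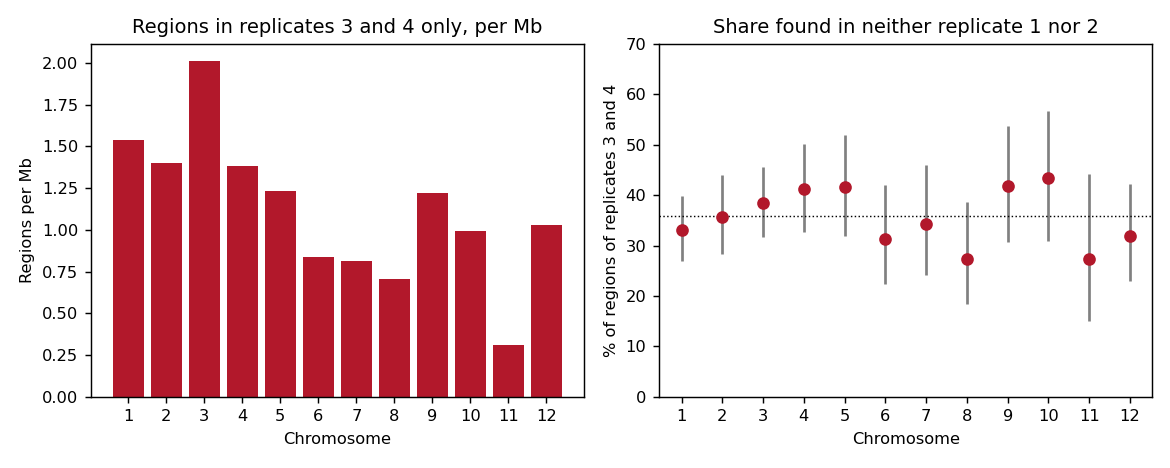
Left, regions found in replicates 3 and 4 only per Mb on each chromosome; right, the percent of all regions with peaks of replicates 3 and 4 that neither replicate 1 nor 2 held, with 95% Wilson intervals that treat regions as independent (the dotted line marks 35.9%). Chromosome 3 has the highest density and chromosome 11 the lowest, while the intervals of the shares all include the dotted line.

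Some of the regions had a neighbour with a peak of replicate 1 or 2, whether or not another list held that neighbour too. Within 10 kb, 92 of the 433 regions (21.2%, interval 17.7 to 25.3%) had a merged region with a peak of replicate 1 or 2. This compares with 16.0% of all regions that held no such peak themselves, 15.7% of those of replicate 3 alone (14.1 to 17.5%) and 11.9% of those of replicate 4 alone (9.27 to 15.3%). For the regions of replicates 1, 3 and 4 and for those of all 4, the share with another such region within 10 kb was 24.1% (20.04 to 28.7%) and 20.74% (16.95 to 25.1%). The share of the 433 regions lay among the latter values and above those of single-list regions. The intervals treat regions as independent, although many lie in chains, so they do not test these differences. Without the 3 longest chains, described next, the share fell to 17.5% of the 411 regions left, at the upper limit of the interval for replicate 3 alone. No chains were left out of the other sets, so these values are not like for like. Within 1 kb, 26 of the 433 regions (6.005%) had such a neighbour. The share was 7.32% for replicates 1, 3 and 4 and 5.59% for all 4. For replicate 3 alone it was 3.59%, and for replicate 4 alone 2.88%. The median distance of the 433 regions to the nearest one was 64.9 kb. It was 56885 bp for replicates 1, 3 and 4 and 61767 bp for all 4. For replicate 3 alone it was 88807.5 bp, and for replicate 4 alone 98042.5 bp.

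Regions no more than 100 kb apart were joined into chains. Of the 433, 258 stood alone, and the others formed 48 pairs, 12 chains of 3, 4 chains of 4, 1 of 5, 2 of 6 and 1 of 10. Chains were not built for the other sets. Within 10 kb of another region of the same set lay 12.9% of the 433 regions. The share was 11.9% for replicates 1, 3 and 4 and 9.57% for all 4 replicates. For replicate 3 alone it was 27.0%, and for replicate 4 alone 10.8%, so such closeness is not particular to the 433 regions. The longest chain, on chromosome 12 from 5613005 to 5653902, held 10 regions in 40.9 kb. In that stretch the 4 lists had 4, 4, 18 and 14 peaks. The folds of the 10 regions were 3.38 to 8.47 in replicate 3 and 3.10 to 7.87 in replicate 4. Their backgrounds were high, with medians of 10.85 and 4.56 fragments. The strongest of them, by mean percentile, was the last one, already named. Another with many fragments was the region from 5625890 to 5626431, with 114 and 44 fragments and folds of 7.35 and 6.12. The most fragments of any of the 433 regions in replicate 3, 162, were found from 5639730 to 5640210, where 55 were counted in replicate 4 and the folds were 5.72 and 3.75.

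The remaining members of the chain ran along the same stretch. The region from 5613005 to 5613482 had folds of 7.11 and 5.73, that from 5621191 to 5621603 had 3.38 and 3.10, and that from 5630004 to 5630325 had 6.85 and 5.85. The region from 5636033 to 5636930 had folds of 5.89 and 5.196, and that from 5642466 to 5643291 had 5.23 and 5.92. The last of these was the only one of the 10 in which replicate 4 had the higher fold. The regions from 5643896 to 5644265 and from 5646652 to 5646928 had folds of 5.83 and 4.09 and of 7.70 and 5.33. Summits were within 100 bp in all of the 10 except the region from 5642466, where they were 473 bp apart.

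Chains of 6 regions lay on chromosome 4 from 32820433 to 32964150 and on chromosome 6 from 23564628 to 23592177. The 22 regions of these 3 chains had median backgrounds of 10.2 fragments in replicate 3 and 4.88 in replicate 4, against 4.77 and 1.90 in the other 411. Their median folds were 5.22 and 4.30, against 4.99 and 4.97. The rule drops 6 dense blocks and none of these stretches, so the chains remain among the 433 regions with backgrounds above the rest. The part of the background in these calls was not tested.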

How the data were processed

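The authors deposited 1 peak list per ChIP replicate, called without pooling. Per the submitters' processing notes, the build was IRGSP-1.0, and the tools listed are MACS2 1.4.2, Bowtie 0.12.8, deepTools 3.5.4 and bcl2fastq 2.2. The deposited peak names of replicates 1, 2 and 4 name Bowtie2, and those of replicate 3 follow another pattern. Neither the use of inputs as controls nor the treatment of duplicates is stated in these sources. The deposited fold is a ratio of pileup to local background at the summit. The deposited −log10 p and −log10 q are the caller's own, and the deposited score, not used here, multiplies the −log10 q by 10. Total reads are not in the lists, so library depth is unknown.

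From these, overlapping peaks were merged (bedtools 2.31.1 gave the same 4076 regions and 498 shared by replicates 3 and 4 only). Regions touching chromosome 12 from 20.45 to 20.71 Mb, 10 from 10.79 to 10.93, 4 from 9.09 to 9.22, 1 from 33.49 to 33.61, 2 from 14.24 to 14.29 or 8 from 9.24 to 9.29 were dropped. Fragments and background were solved from fold and −log10 p. All 7352 peaks had a whole number of fragments that met the deposited −log10 p to within 0.002, and exactly 1 such number was found for each of the 875 peaks of the 433 regions. Regions were chosen by presence in the lists and are not replicates, so values are descriptions without tests. Wilson and Poisson intervals cover counting error only. The named regions are the 12 highest and 5 lowest by mean percentile of fold, the 4 widest, the 3 nearest to and the 3 just beyond the edge of the rule, the 3 largest and 3 smallest ratios of fold, and the longest chain. The regions and these lists were chosen with earlier results of these data known. Python 3.11.15, numpy 2.4.6, pandas 2.3.3, scipy 1.17.1 and matplotlib 3.10.9 were used, and the steps were tested on simulated data. Alternatives are given in the closing section. The input samples entered no comparison.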

Additional observations from a re-analysis of the deposited data

How the results depend on the processing

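No paired analysis was possible because the input samples, which share replicate numbers with the ChIP samples, had no peak list here and no result comes from a test. The number of regions, 433, became 227 when a −log10 q of at least 5 was asked of replicates 3 and 4 and 34 with lists of equal length. The mean of the 2 median folds, 4.98, became 5.05 with summits within 200 bp, 5.27 with reciprocal overlap of 50%, 5.07 with a −log10 q of at least 2 in all lists, 5.68 with one of at least 5 in lists 3 and 4, 4.94 with the dense blocks kept in and 8.35 with lists of equal length. The share of summits within 100 bp, 78.3%, became 86.3% with summits within 200 bp, 86.3% with a −log10 q of at least 5 and 94.1% with equal lists. The rank correlation of folds, 0.42, became 0.51 with reciprocal overlap and 0.32 with equal lists. The share with a neighbouring region of replicate 1 or 2 within 10 kb, 21.2%, became 29.4% with reciprocal overlap, 25.6% with a −log10 q of at least 5, 17.6% when no peak of replicate 1 or 2 was allowed within 1 kb, 31.5% with the blocks kept in and, by an alternative chosen after seeing the data, 17.5% without the 3 longest chains. Stricter thresholds and equal lists remove weak peaks by construction, the limit on summits raises the share of close summits, and the 1 kb limit removes near neighbours. The cause of the other shifts was not tested. With 1 replicate left out of the rule in turn, the number of regions was between 460 (without replicate 2) and 2189 (without replicate 4, when replicate 3 alone is asked for). It was 802 without replicate 1 and 917 without replicate 3. The median fold was then 4.46 to 5.62, the share of summits within 100 bp 77.3 to 77.4%, the rank correlation 0.42 to 0.48 and the share with a neighbour 13.2 to 21.1%. The lists hold called peaks only, so enrichment below the threshold in replicates 1 and 2 was not detectable.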
